A study of Mus musculus with 8 samples.

Results

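Expression of 8 genes that mark tendon cells or fibroblasts was examined in skeletal cells of the mouse fracture callus. The genes were chosen by name, as 3 tendon genes (Scx, Mkx and Tnmd), 3 genes of universal fibroblasts (Dpt, Pi16 and Clec3b) and 2 further fibroblast genes (Fap and S100a4), of 18193 genes measured. They were read from 10 of 45037 probe sets, a probe set being the group of array probes that reports a transcript, and each of the 10 carries a single gene symbol. The cells were skeletal stem cells (SSCs, 4 arrays) and bone, cartilage and stromal progenitors (BCSPs, 4 arrays), purified by flow cytometry from pinned bicortical femoral fractures of male C57/Bl6 mice aged 10 to 12 weeks and not cultured. Both populations lacked CD45, Ter119, Tie2, 6C3 and Thy1 and carried CD51, SSCs with CD200 and without CD105, BCSPs with CD105. Per the labels, calluses were taken 7 days after injury and 10000 cells were sorted per population (the methods give a later day), and SSCs and BCSPs were sorted side by side in 4 experiments. No mouse carried an engineered allele or received a drug according to the labels, and no uninjured bone, tendon or sorted fibroblast sample was analysed here. The study describes the calluses as those of different mice, while the labels do not tie an array to a mouse, and p-values measure the spread between these arrays.

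Scx (scleraxis) encodes a basic helix-loop-helix transcription factor of tendon and ligament progenitors, Mkx (Mohawk) a homeobox factor of tendon cells, and Tnmd (tenomodulin) a transmembrane glycoprotein of mature tendon that is known as a target of scleraxis. Scx is also made by progenitors at the attachment of tendon to cartilage, together with the cartilage factor Sox9. Dpt (dermatopontin, a small matrix protein) and Pi16 (peptidase inhibitor 16) mark fibroblasts that are shared among many organs, often around vessels, and Clec3b (tetranectin, a plasminogen-binding lectin) is made by the same cells. Fap (fibroblast activation protein, a cell surface protease) marks activated fibroblasts, and S100a4 (fibroblast-specific protein 1, a calcium-binding protein) is found in fibroblasts but also in macrophages.

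The deposited value is an activity score for each probe set, which ran from -100.03 to 100 over all arrays. The score is a percentile, from inactive to active, that places a probe set among many public mouse arrays, with 0 as its threshold. A gene is called active here above 0. It is not on a log scale, gives no fold change, levels off near 100, and does not rank the amount of mRNA between genes. Between 29.0% and 31.0% of probe sets scored above 0 on an array. As a silent reference, 39 genes that unrelated tissues such as retina and liver express were used, and 95% of their probe sets lay below a limit that ran from -18.4 to -8.59 between arrays (the silent limit). The number of arrays limits the precision. Of the sort markers, Eng (CD105) did not exceed -29.4 in SSCs and was at least -1.02 in BCSPs. The other probe set of Eng did not exceed -11.97 on any array. Cd200 scored alike in both populations, at 97.5 ± 1.70 (SD, n = 4) for SSCs and 96.6 ± 2.46 (SD, n = 4) for BCSPs.

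The 3 tendon genes were active on all 8 arrays. Among all genes, 25.0% were. Mkx lay highest in its range and Tnmd varied most between arrays. Mkx scored 96.3, 95.5, 97.9 and 96.3 on the SSC arrays of experiments 1 to 4 and 94.7, 96.1, 97.2 and 97.0 on the BCSP arrays. All 8 values lay within 3.19 points of each other and above those of at least 98.1% of probe sets on their array. The mean was 96.5 ± 1.01 (SD, n = 4) for SSCs against 96.3 ± 1.13 (SD, n = 4) for BCSPs, close to the upper limit, where the score levels off.

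Scx scored 87.9, 73.3, 75.5 and 64.6 on the SSC arrays of experiments 1 to 4 and 77.0, 62.0, 54.9 and 84.2 on the BCSP arrays. The populations overlapped, with the highest value in SSCs and the lowest in BCSPs. These values came from probe set 1428983_at, with means of 75.3 ± 9.62 (SD, n = 4) and 69.5 ± 13.4 (SD, n = 4). The other probe set of Scx, 1456291_x_at, lay 42.5 to 86.0 points lower on the same arrays. It was above 0 on 2 SSC arrays and 1 BCSP array, at -12.7 to 33.1, but above the silent limit on all 8. The call of Scx as active on every array thus rests on 1 of its 2 probe sets.

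Tnmd scored 72.9, 34.5, 45.1 and 7.07 on the SSC arrays and 51.0, 56.6, 39.6 and 24.7 on the BCSP arrays. The lowest value in each population came from experiment 4. The mean was 39.9 ± 27.2 (SD, n = 4) for SSCs against 43.0 ± 14.1 (SD, n = 4) for BCSPs, and Tnmd was the lowest of the 3 tendon genes on every array. Cnmd (chondromodulin), the cartilage relative of Tnmd, scored at least 99.94 on each array.

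**Figure D1:**
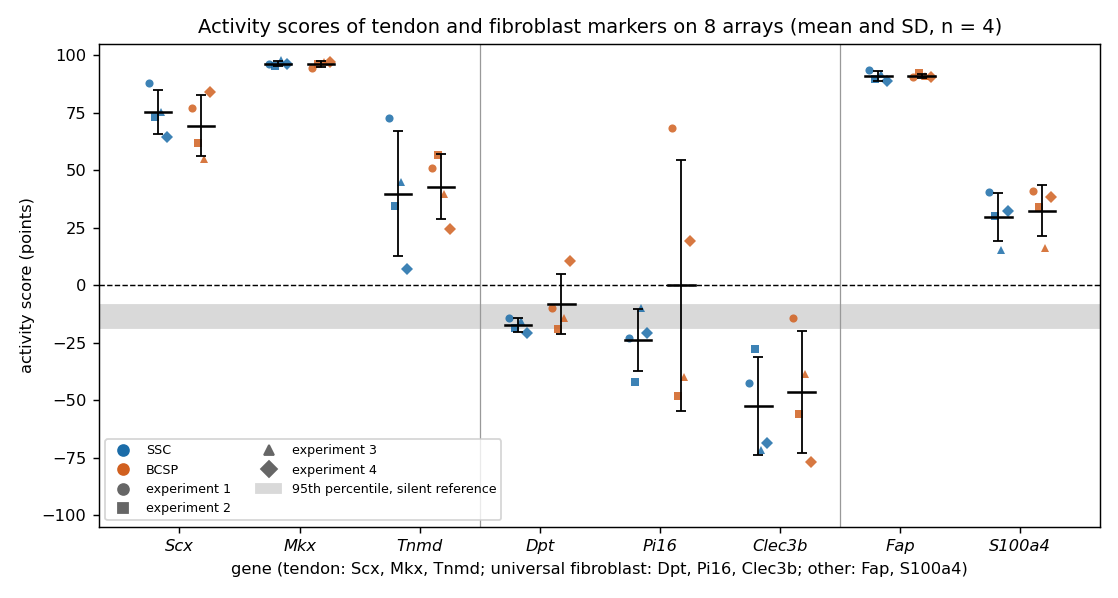
Activity scores (points, from about -100 to 100) of the 8 genes on 4 SSC arrays (blue) and 4 BCSP arrays (orange), with the experiment shown by the symbol, the mean as a bar and the SD as whiskers. The tendon genes, Fap and S100a4 lie above the dashed threshold of 0 on all arrays, while Dpt, Pi16 and Clec3b lie mostly in or below the grey band, which spans the silent limits of the arrays (-18.4 to -8.59).

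None of the 3 universal fibroblast genes was active on all 8 arrays. Dpt was above 0 on 1 array, Pi16 on 2 and Clec3b on none. Among all genes, 43.5% were above 0 on no array. Dpt scored -14.2, -18.5, -15.5 and -20.9 on the SSC arrays of experiments 1 to 4 and -9.95, -19.0, -14.2 and 10.4 on the BCSP arrays. Its means were -17.2 ± 3.00 (SD, n = 4) and -8.19 ± 12.9 (SD, n = 4). Dpt exceeded the silent limit on 1 array, the BCSP array of experiment 4.

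Pi16 scored -22.7, -42.1, -9.85 and -20.7 on the SSC arrays and 68.5, -48.3, -39.7 and 19.4 on the BCSP arrays of experiments 1 to 4. It was above 0 on the BCSP arrays of experiments 1 and 4 and below 0 on the other 6 arrays. Pi16 exceeded the silent limit on 3 arrays, these 2 and the SSC array of experiment 3 (-9.85 against -11.1). The mean was -23.8 ± 13.4 (SD, n = 4) for SSCs against -0.0025 ± 54.7 (SD, n = 4) for BCSPs. The BCSP array of experiment 1 also held the highest score of the silent reference on any array, 63.4 for the kidney transporter gene Slc12a1, which scored 46.2 on the BCSP array of experiment 2. On the BCSP array of experiment 4 no gene of the silent reference was above 0. The second probe set of Pi16, 1453839_a_at, lay 29.8 to 164 points lower, was below 0 on all 8 arrays and scored -95.5 on the BCSP array of experiment 1. It scored -35.9 on the BCSP array of experiment 4, its highest value, and -71.9 or less on the others. The high Pi16 score of experiment 1 is therefore given by 1 probe set alone.

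**Figure D2:**
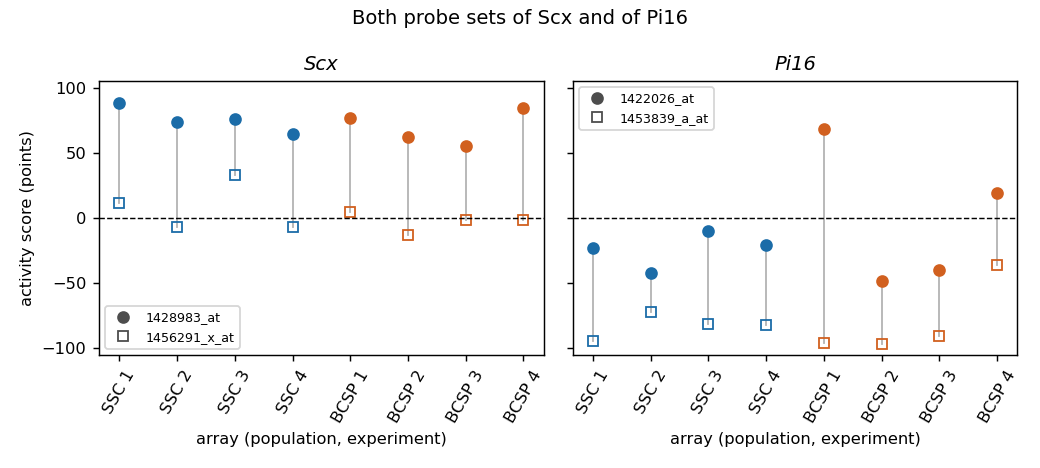
Activity score (points) of both probe sets of Scx (left) and of Pi16 (right) on each array, SSC in blue and BCSP in orange, with a grey line joining the probe sets of an array. The higher probe set of Scx lies above 0 throughout and the other near 0, while for Pi16 the gap widens to 164 points on the BCSP array of experiment 1.

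Clec3b scored -42.4, -27.5, -71.7 and -68.8 on the SSC arrays and -14.2, -55.9, -38.3 and -76.6 on the BCSP arrays. All of these values were below the silent limit of their array. The mean was -52.6 ± 21.3 (SD, n = 4) for SSCs against -46.3 ± 26.5 (SD, n = 4) for BCSPs. A score below 0 places Dpt, Pi16 and Clec3b below their own thresholds and does not show that they were silent. In sorted cells measured in bulk, fewer cells that make a transcript and less of it per cell cannot be told apart.

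The other fibroblast genes were active on all 8 arrays. Fap scored 93.8, 89.7, 92.0 and 88.7 on the SSC arrays of experiments 1 to 4 and 90.5, 92.3, 91.2 and 90.6 on the BCSP arrays, above at least 96.3% of probe sets on each array. The means were 91.0 ± 2.30 (SD, n = 4) and 91.1 ± 0.854 (SD, n = 4). S100a4 scored 40.7, 29.99, 15.6 and 32.2 on the SSC arrays and 41.0, 33.9, 16.4 and 38.6 on the BCSP arrays, with means of 29.6 ± 10.4 (SD, n = 4) and 32.5 ± 11.1 (SD, n = 4). Within each experiment the S100a4 scores of both populations lay close together, and experiment 3 was lowest in both. Macrophages also make S100a4, and all 12 macrophage genes examined were below 0 on all 8 arrays. The median of that list ran from -71.1 to -61.4 on the SSC arrays and from -78.9 to -58.3 on the BCSP arrays. Among all genes, 43.5% were above 0 on no array, and such scores do not show absence. The part of macrophages in the S100a4 score was not tested.

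The tendon genes were set against the universal fibroblast genes on each array by the difference of their medians. The median of Scx, Mkx and Tnmd exceeded that of Dpt, Pi16 and Clec3b by 111, 101, 91.0 and 85.4 points on the SSC arrays of experiments 1 to 4 and by 86.9, 110, 93.2 and 73.8 points on the BCSP arrays. The mean of this difference was 97.0 ± 11.1 (SD, n = 4) points for SSCs and 91.0 ± 15.1 (SD, n = 4) points in BCSPs. On every array the tendon median was the score of Scx by 1428983_at, whose other probe set scored lower. On 7 of 8 arrays the lowest tendon gene, which was Tnmd, scored above the highest universal fibroblast gene. The exception was the BCSP array of experiment 1, with Pi16 at 68.5 and Tnmd at 51.0. With the probe set of largest range for each gene, which exchanges the probe set of Scx, the difference was 61.5 points in SSCs and 64.5 points in BCSPs. Since the genes were chosen with earlier results known, no test was made of this difference.

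Promoter sequence from RefSeq was used for 4 of the 8 genes, Tnmd, Dpt, Pi16 and S100a4. The 250 bases before the start site are shown for Tnmd, a tendon gene, and for Dpt, a universal fibroblast gene. Pi16, the other universal fibroblast gene with a sequence, is not shown. Scleraxis belongs to the proteins that bind E-boxes, here searched as CANNTG, which reads the same on both strands, with overlapping matches allowed and each match in capitals.
Tnmd: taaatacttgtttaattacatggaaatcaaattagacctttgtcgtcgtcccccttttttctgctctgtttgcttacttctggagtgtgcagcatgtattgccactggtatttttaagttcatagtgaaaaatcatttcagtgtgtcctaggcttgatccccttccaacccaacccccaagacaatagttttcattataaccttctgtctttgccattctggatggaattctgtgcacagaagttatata
Dpt: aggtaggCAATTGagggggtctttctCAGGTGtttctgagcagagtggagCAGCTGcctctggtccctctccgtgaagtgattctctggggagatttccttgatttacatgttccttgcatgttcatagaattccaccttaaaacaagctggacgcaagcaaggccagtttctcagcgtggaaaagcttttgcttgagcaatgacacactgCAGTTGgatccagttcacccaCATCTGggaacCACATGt
The Tnmd sequence is chrX:133850758-133851007 and the Dpt sequence chr1:164796413-164796662, both on the plus strand of GRCm38.p6. The Dpt window held 6 matches, which begin 243, 224, 200, 39, 18 and 7 bases before the start site. The Tnmd window held 0, as did those of Pi16 and S100a4. Dpt and Pi16, both universal fibroblast genes, thus differed in matches. Of 32851 promoter windows of the same length, 66.2% held at least 1 match and 0.274% at least 6. A match is a run of letters and not a binding site, and its absence from 250 bases says nothing of sites elsewhere.

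SSCs and BCSPs were compared to ask whether the stem cells and the progenitors downstream of them differ in these genes. None of the 8 genes passed limma at an adjusted p under 0.05, and 0 had an unadjusted p below 0.05. Over all genes 0% were called higher in SSCs and 0% higher in BCSPs, while 2.56% had an unadjusted p below 0.05. Eng, whose protein was used to sort the populations, was therefore not called either. The lack of calls does not show that the populations are equal. The populations overlapped for all 8 genes. Of all genes, 1.34% had populations that did not overlap. The adjusted p from limma was 1 for each of the 8 genes, with the replicate block 0.939 to 1.00.

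The intervals differed widely in width. Mkx differed by 0.233 points (SSC minus BCSP, 95% confidence interval -2.80 to 3.27) and Fap by -0.0900 points (-4.06 to 3.88), both near the upper limit of the score. Scx differed by 5.84 points (-10.8 to 22.5) and was higher in SSCs in 3 of 4 experiments. An exact two-sided permutation test of 4 against 4 arrays gave p = 0.486 for Scx. Neither this test nor the main limma fit uses the pairing of arrays by experiment. The other probe set of Scx gave 10.7 points (-20.5 to 41.8) with the same direction in the same number of experiments. Tnmd differed by -3.09 points (-35.4 to 29.2), higher in SSCs in 2 experiments and lower in 2 (exact permutation p = 0.8286). With the experiment as a replicate block the interval of Tnmd was -25.3 to 19.1 points. Single arrays moved both values. Scx differed by 0.971 points without the BCSP array of experiment 3, by 1.65 without the SSC array of experiment 1 and by 10.7 without the BCSP array of experiment 4. Tnmd turned to 7.85 points without the SSC array of experiment 4 and to 1.45 without the BCSP array of experiment 2, and was -14.1 without the SSC array of experiment 1. Mkx turned to -0.238 points without the SSC array of experiment 3 and to -0.283 without the BCSP array of experiment 1. Fap turned to 0.368 and 0.692 points without the SSC array of experiment 2 or 4, and to 0.308 without the BCSP array of experiment 2.

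Among the universal fibroblast genes, Dpt differed by -9.05 points (-33.2 to 15.1, exact permutation p = 0.200), of which experiment 4 gave -31.2 points and the others -4.22 to 0.55, and by -2.86 points without the BCSP array of experiment 4. Pi16 differed by -23.8 points (-80.5 to 32.9, exact permutation p = 0.429), and by -0.988 points without the BCSP array of experiment 1. Clec3b differed by -6.35 points (-41.3 to 28.6, exact permutation p = 0.743) and took each sign in 2 experiments. It turned to 4.35 points when the BCSP array of experiment 1 was left out, and to 0.0067 when the SSC array of experiment 3 was. S100a4 differed by -2.85 points (-25.9 to 20.2) and was lower in SSCs in 4 of 4 experiments, with differences of -0.330 to -6.37 points. Its difference turned to 1.82 points without the SSC array of experiment 3, which leaves the low BCSP array of that experiment in place. Of all genes, 12.7% kept a single direction in the 4 experiments. With arrays exchanged inside their experiment, the exact permutation p for S100a4 was 0.125, the smallest that 4 pairs allow. The same exact permutation gave p = 0.25 for Dpt, 0.5 for Scx and Pi16, 0.75 for Mkx and 0.875 for Tnmd and Clec3b. The smallest p of the test of 4 against 4 arrays is 0.0286.

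**Figure D3:**
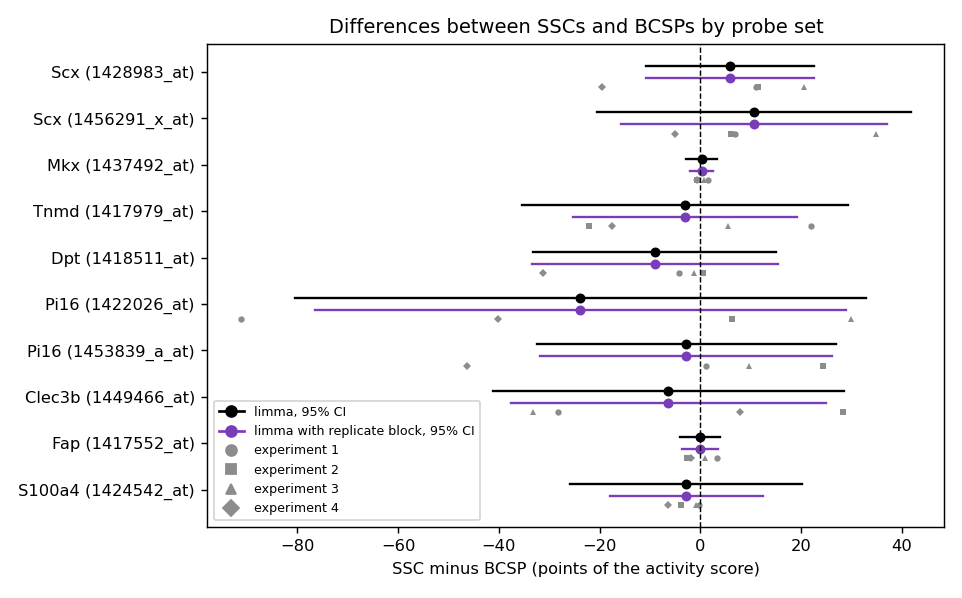
Difference between SSCs and BCSPs (points, SSC minus BCSP) for each probe set of the 8 genes, with the 95% confidence interval from limma (black), the same with the experiment as a replicate block (purple) and the difference in each experiment (grey symbols). Every interval includes 0, the narrowest for Mkx and Fap and the widest for the probe set of Pi16 that scored higher.

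The sum of squares over the 8 arrays was divided between experiments and populations. With no effect of either, experiments would take 42.9% and populations 14.3%, since there are 4 experiments and only 2 populations. Experiments took 96.0% for S100a4, 77.0% for Tnmd, 72.8% for Mkx, 60.8% for Clec3b and 49.0% for Pi16, against a median of 64.1% over all genes. For the other 3 genes the share was below the value for no effect, at 40.3% for Scx, 38.6% for Fap and 28.1% for Dpt. Populations took 23.7% for Dpt, the 1 gene above the value for no effect, and 0.0896% to 10.7% for the others, against a median of 4.74% over all genes. S100a4 averaged 40.8, 31.9, 16 and 35.4 points in experiments 1 to 4. Experiment 3, where it was lowest, had the largest gap between the 3' and 5' control probe sets of actin, 59.6 points on the SSC array and 64.9 on the BCSP array, against 23.1 to 44.2 on the others. The corresponding gap of Gapdh was largest on the BCSP array of experiment 4, at 71.9 points, where S100a4 scored 38.6. The part of these gaps in the S100a4 score was not tested. Tnmd averaged 62.0, 45.5, 42.4 and 15.9 points in experiments 1 to 4, so that experiment 1 was highest and experiment 4 lowest. The Gapdh gap was 21.3 points on the SSC array and 21.6 on the BCSP array of experiment 1, 25.9 and 44.2 in experiment 2, 54.7 and 49.1 in experiment 3, and 53.9 and 71.9 in experiment 4. The actin gap was smallest on the SSC array of experiment 4, at 23.1 points, where Tnmd was lowest. The part of either gap in the Tnmd score was not tested.

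**Figure D4:**
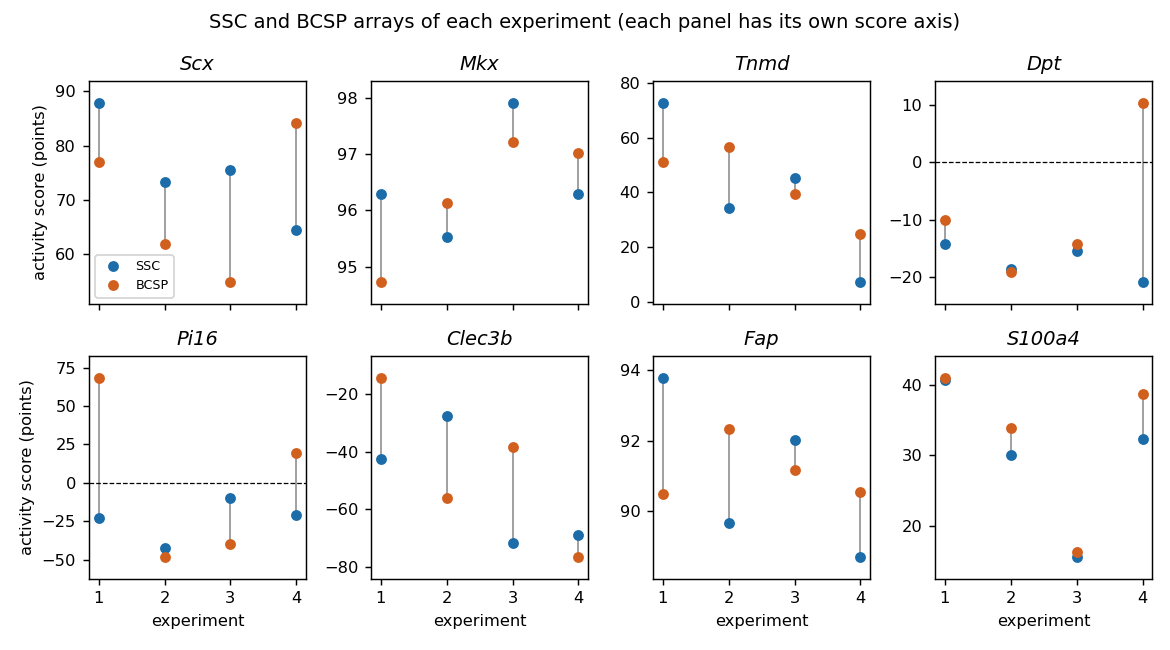
Activity score (points, each panel on its own axis) of the 8 genes in experiments 1 to 4, SSC in blue and BCSP in orange, joined by a line within each experiment. The pairs of S100a4 lie together and shift between experiments (15.6 and 16.4 in experiment 3), while those of Pi16 lie apart in experiment 1 (-22.7 and 68.5).

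Across the 8 arrays, the 28 pairs of these genes correlated at a Pearson r from -0.738 (Mkx and Clec3b) to 0.892 (Tnmd and Fap), with a median of 0.175. Scx correlated with Tnmd at r = 0.304 and with Mkx at r = -0.110, and Dpt with Pi16 at r = 0.541. Arrays of an experiment are not independent, and Mkx and Fap spanned only 3.19 and 5.09 points, so these values are descriptions. Of 16472 other genes that spanned at least 20 points, those most like Tnmd over the 8 arrays were Pgap2, Mrpl13 and Fbxo3 (r = 0.970 to 0.989), and 46 had r above 0.9. Those most like S100a4 were Sar1b, Fdx1 and Tmem9b (r = 0.985 to 0.988), and 295 had r above 0.9. Those most like Scx were Gprc5d, 1700054O19Rik and Klhl18 (r = 0.957 to 0.964), with 16 above 0.9, and Gprc5d was below 0 on every array. For Pi16 they were 4930413E15Rik, Anks4b and Psmb8 (r = 0.969 to 0.982), with 33 above 0.9. For Dpt they were Serpinb1b, Zfp598 and Htra4 (r = 0.940 to 0.980), with 14 above 0.9. For Clec3b they were Kcnj1, 4930581F22Rik and Rassf10 (r = 0.961 to 0.985), with 36 above 0.9. With 8 arrays and 16472 genes, some unrelated genes also reach such values. How many would exceed 0.9 without any relation was not tested, so these names do not show shared regulation.

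Further tendon and ligament genes were mostly active, whereas further universal fibroblast genes were divided. Of 25 measured tendon and ligament genes, 18 (72.0%) were active throughout and 4 scored below 0 throughout, against 25.0% and 43.5% of all genes. The highest were Fmod (fibromodulin, a collagen-binding proteoglycan), Comp (cartilage oligomeric matrix protein) and Col12a1 (a fibril-associated collagen), at a mean of 98.6 to 99.8 over the arrays. Many of these genes are also made by cartilage, and all 12 chondrocyte genes examined, Sox9 among them at 99.7 or above, were active on all 8 arrays. Thbs4 (thrombospondin 4, of tendon matrix) scored from 12.3 to 65.6, like Tnmd active on all 8 arrays over a wide span. The lowest were Six2 (a homeobox factor, mean -41.7), Kera (keratocan, a proteoglycan of cornea and tendon, mean -36.2) and Chodl (chondrolectin, mean -16.6), all below 0 on every array.

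Of 19 measured further genes of universal fibroblasts, 8 (42.1%) were active throughout and 6 scored below 0 throughout, against 25.0% and 43.5% of all genes. Highest were Pcolce2 (a procollagen processing enhancer, at least 99.8), Ugdh (an enzyme of glycosaminoglycan precursors, at least 97.5) and Ackr3 (a scavenging chemokine receptor, at least 94.2). The lowest were Cd55 (mean -54.7), Cd34 (mean -43.9) and Dpp4 (mean -37.7), genes of surface proteins known from Pi16-positive fibroblasts, all below 0 on every array. Cd34 was the 1 gene of the list with an unadjusted p below 0.05, at -63.3 ± 17.1 (SD, n = 4) for SSCs against -24.5 ± 5.12 (SD, n = 4) for BCSPs, and it did not pass limma (adjusted p = 1). Cd34 is also made by endothelial cells, and 2 of 9 endothelial genes had an unadjusted p below 0.05, against 2.56% of all genes. Both were higher in BCSPs and below 0 on every array. Robo4 scored -83.2 ± 5.89 (SD, n = 4) on SSC arrays and -43.6 ± 11.4 (SD, n = 4) on BCSP arrays, and Emcn -89.85 ± 8.29 (SD, n = 4) and -57.2 ± 28.8 (SD, n = 4), with a limma adjusted p of 1 for each. Of the 9 endothelial genes, 2 were instead higher in SSCs. Cdh5 scored -25.3 ± 4.10 (SD, n = 4) on SSC arrays and -54.0 ± 29.5 (SD, n = 4) on BCSP arrays. Pecam1 scored -79.4 ± 9.94 (SD, n = 4) and -82.7 ± 6.05 (SD, n = 4). The part of endothelial transcripts in the Cd34 score was not tested. Col15a1, a basement membrane collagen of universal fibroblasts, was below 0 on every array (mean -9.28). It exceeded the silent limit on some, as on the BCSP array of experiment 4 (-1.66 against -18.4). Cd248 and Penk of the same list were active on all 8 arrays, at 28.8 to 65.8 and 36.2 to 57.6.

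Of 19 measured genes of activated fibroblasts, the company in which Fap is usually found, 15 (78.9%) were active throughout and 4 scored below 0 throughout. The shares over all genes were 25.0% and 43.5%. Fn1 (fibronectin), Postn (periostin) and Sparc (osteonectin) were highest, at a mean of 97.4 to 99.8. Tagln (mean -53.1), Lrrc15 (mean -17.6) and Pdpn (mean -15.6) were lowest, and the fourth of the genes below 0 throughout was Acta2, the smooth muscle actin of myofibroblasts (mean -14.9). S100a6 and S100a10, relatives of S100a4, were active on all 8 arrays, at 23.04 to 40.8 and 73.7 to 92.8. None of these 63 genes passed limma between SSCs and BCSPs, and 1 had an unadjusted p below 0.05. The lists overlap with genes of bone and cartilage matrix.

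**Figure D5:**
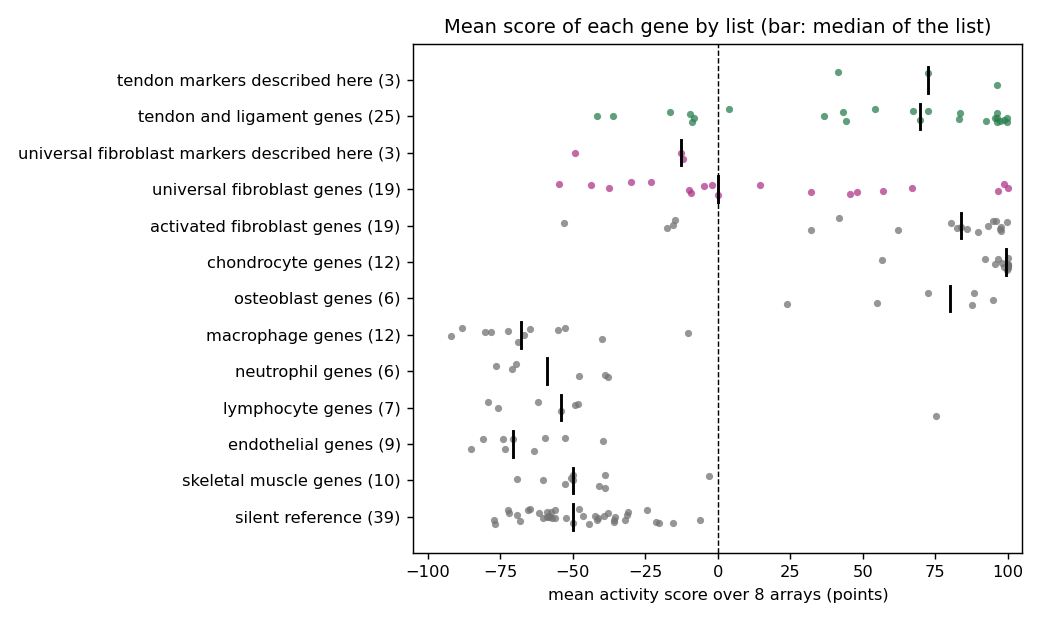
Mean activity score over the 8 arrays (points) of each gene, by list, with the number of measured genes in brackets and the list median as a black bar. The medians are 69.6 for further tendon and ligament genes, 0.189 for further universal fibroblast genes and 83.9 for activated fibroblast genes, while lists of blood, endothelial and muscle cells lie at medians of -70.8 to -50.04.

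Genes of other cells that a callus could hold were below 0 nearly throughout. Of 44 measured genes of macrophages, neutrophils, lymphocytes, endothelium and skeletal muscle, 43 were above 0 on no array, against 43.5% of all genes. The exception was Cd8a of the lymphocyte list, at 59.7 to 92.8 on all 8 arrays by 1 of its 5 probe sets, the others never exceeding 0. The median of the 10 muscle genes, cells that adjoin tendon, ran from -60.8 to -37.2 on the SSC arrays and from -54.6 to -32.4 on the BCSP arrays. That of the 9 endothelial genes ran from -79.8 to -74.0 on the SSC arrays and from -77.7 to -46.1 on the BCSP arrays. The muscle gene Tnnt3 (-4.33 to -1.17) exceeded the silent limit on all 8 arrays. Scores below 0 do not show absence, and the sort had taken cells without CD45, Ter119 and Tie2. The markers of bone were active, with 5 of 6 measured osteoblast genes above 0 on all 8 arrays, against 25.0% of all genes.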

How the data were processed

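Gene expression was measured on 8 Affymetrix mouse arrays, 4 of SSCs and 4 of BCSPs. The authors amplified and hybridized the RNA and used Gene Expression Commons for normalization, and the deposited activity score per probe set is its output. No source used here says how probes were summarised.

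The platform annotation named 34945 probe sets with 1 gene symbol, 932 with several and 9160 with none, and 64 control probe sets were left out. Each of 18193 genes was represented by its probe set of highest mean score. Other probe sets of Scx and Pi16 were fitted over all 45037. The score was compared between SSCs and BCSPs in R 4.3.3 with lmFit and eBayes (trend) of limma 3.58.1, adjusted by Benjamini-Hochberg over all features at a threshold of 0.05, and by two-sided exact permutation over 70 assignments of arrays or 16 exchanges inside experiments. The fits were tested on simulated scores.

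The BCSP array of experiment 2 is numbered 3 in its title and 2 in its description, and the description was used. The experiment number pairs the arrays per the labels, and deviations of paired arrays from their population means correlated across genes at 0.399, 0.177, 0.572 and 0.183. The genes named were the members, the 3 genes most like each member with a span of at least 20 points, at most the 3 highest and 3 lowest of each list, and Cnmd, Sox9 and Eng. Slc12a1, Cd8a, Robo4, Emcn, Thbs4, Col15a1, Cd248, Penk, Acta2, S100a6 and S100a10 were added with their values known. The members and lists were chosen with earlier results of these data known. Alternatives were the replicate block, quantile normalization, centring each array on its median, a filter on low scores, other choices among the probe sets of a gene, a constant prior variance, the methods' t-test and leaving out each array. Leaving out whole experiments and using the silent limit in place of 0 were added after seeing the data.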

Additional observations from a re-analysis of the deposited data

Results flagged for a closer look

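Of 22 sets of 4 arrays examined for a value far from the rest, 1 had such a value, where chance gives about 1 in 20. The Pi16 probe set 1453839_a_at scored -35.94 on the BCSP array of experiment 4, against -96.2 to -90.8 on the other BCSP arrays, and the gap was 91.06% of the range of the group. On that array the other Pi16 probe set scored 19.4 and Dpt 10.4, while 1453839_a_at was below 0 on all 8 arrays.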

How the results depend on the processing

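No gene or probe set was called under any of 20 alternatives for genes and 17 for probe sets, the replicate block included, so the calls of the 8 genes (0) were the same throughout. At an unadjusted p below 0.05 there were 465 genes, 949 with the replicate block, 440 by the methods' t-test and 84 of 7338 genes after the filter on low scores. Dpt, Pi16 and Clec3b did not pass that filter. With the replicate block the interval of S100a4 was -18.05 to 12.3 points. The direction of Scx, Dpt and Pi16 was kept under every alternative. That of Fap turned with quantile normalization (0.866 points) and centring (0.333 points), and that of S100a4 with quantile normalization (0.0039 points). Leaving out single arrays or experiments gave ranges of -1.22 to 0.767 for Fap, -0.283 to 0.558 for Mkx, -8.21 to 1.82 for S100a4, -14.1 to 7.85 for Tnmd, -17.9 to 4.35 for Clec3b, -11.9 to 11.8 for the lower probe set of Pi16, 0.903 to 14.3 for Scx, -12.7 to -1.66 for Dpt and -41.7 to -0.988 for Pi16, the last without the BCSP array of experiment 1. The difference of tendon and fibroblast medians was above 0 on every array, so leaving out arrays could not reverse it. Centring shifts both medians alike and could not change it. The tendon median exceeded the fibroblast median under every alternative. It did so by 61.5 points in SSCs and 64.5 in BCSPs with the probe set of largest range for each gene, which takes the lower Scx probe set, and by 92.4 to 101 and 84.6 to 96.8 points without single arrays. Of the 8 genes, 5 were active on all arrays, and 4 with the probe set of largest range. Scores near 100 level off and limit what can be seen for Mkx and Fap.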
